A study of Vuilleminia comedens with 3 samples.

Results

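Wood-decay fungi break cellulose down with sets of secreted hydrolases, and 58 transcripts of the crust fungus Vuilleminia comedens with the names of such enzymes are described here. They were chosen from the 22605 transcripts with a database match, among 81106 assembled transcripts. The deposited product name had to hold the word cellobiohydrolase, endoglucanase, cellulase or beta-glucosidase, or one of glycoside hydrolase families 6, 7, 12 and 45. Names with xyloglucan were left out, and the rule itself uses no measured level. The family numbers brought in 0 transcripts, so every transcript was found by an enzyme word. A product name belongs to the matched entry of another fungus and is not an activity measured in V. comedens.

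Cellulose chains are cut inside by endoglucanases and shortened from their ends by cellobiohydrolases, which release the disaccharide cellobiose. Beta-glucosidases then split cellobiose into glucose, and some of them act on other glucosides. In many wood-decay basidiomycetes these enzymes work beside lytic polysaccharide monooxygenases, copper enzymes that open crystalline cellulose by oxidation.

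The RNA came from strain VcWVJH1 in autoclaved beech blocks of 2 cm3, colonised for about 8 weeks on 0.5% malt extract plates. Surface mycelium had been scraped off, and 2 colonised blocks had then been aligned on perlite for 7 days at 20 °C, held by an elastic band for the first 3 days. The wood used was the part of each block nearest the contact face. By its label the pairing was a self-pairing, V. comedens against V. comedens. The 3 libraries came from separate blocks under this condition alone, so no treatment or wood-free control was compared.

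The count columns carried no names and are called libraries A, B and C. They held 111754018, 68151997 and 64236917 counts, of which 67.0% to 70.1% fell on 2 transcripts that are not in the set. Reads are therefore given as residual CPM, reads per 1000000 counts outside those 2 transcripts, or per length as RPKM, reads per kilobase and 1000000 total counts. A floor of 3 counts equals 0.0897 residual CPM in A, 0.133 in B and 0.152 in C. In RNA extracted from such colonised wood, fewer hyphae using a gene and less RNA per hypha cannot be told apart.

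By name the set comprised 18 cellobiohydrolase, 14 endoglucanase and 26 beta-glucosidase transcripts, which matched 22 database entries. Endocellulases and endoglucanase V-like proteins are counted with the endoglucanases. The 58 transcripts belonged to 43 assembler genes, the clusters of isoforms that the assembly groups together. Many were fragments: 33 were under 500 bp, 56.9% against 43.9% of all transcripts with a match. These 33 held 1.44% of the reads of the set and the 25 longer ones 98.6%.

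Reads were concentrated in few transcripts. The 3 with most reads held 54.7% of all reads of the set and the 10 with most reads 85.1%. At least 100 reads in total were counted for 24 of the 58, or 41.4%, against 50.7% of all transcripts with a match. The other 34 had 4 to 97 reads. The median level of the 58 was 0.305 RPKM, and that of all transcripts with a match 0.488 RPKM.

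**Figure D1:**
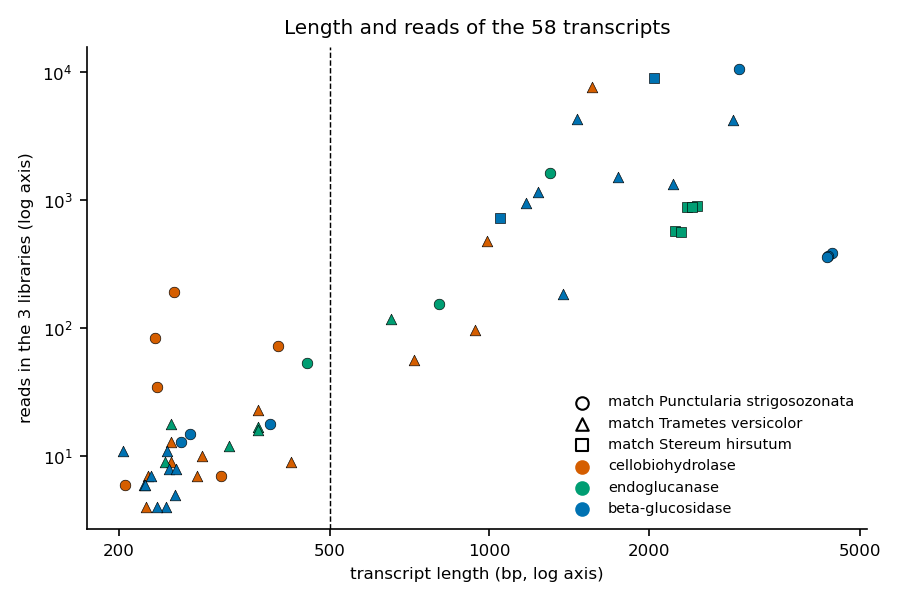
Transcript length in bp against reads summed over the 3 libraries, both on log axes, for all 58 transcripts. Colour marks the role by name, the symbol marks the matched species, and the dashed line stands at 500 bp. The 33 transcripts left of the line have at most 193 reads each, while the 25 right of it reach 10588.

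Best matches were to Trametes versicolor for 35 transcripts, to Punctularia strigosozonata for 16 and to Stereum hirsutum for 7. The T. versicolor share was 60.3%, against 51.2% of all matched transcripts. T. versicolor matches included 23 of the 33 fragments under 500 bp and held 44.8% of the reads of the set. P. strigosozonata matches held 27.99% and S. hirsutum matches 27.2%. Some assembled transcripts of the series were read almost only in library A. Of 31 transcripts of the set with at least 20 reads, 0 had over 90% of their depth-scaled reads there, against 1.11% of all transcripts with that many reads. At that share a count of 0 in 31 shows nothing particular to the set. Some transcripts under that minimum were read only in library A, such as TRINITY_DN17004_c0_g1_i1 with 16, 0 and 0 reads.

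As a whole, the set was read most in library C and least in library B. It held 17922, 8534 and 23509 reads in libraries A, B and C, or 536, 379 and 1190.5 residual CPM. The mean was 702 ± 430 residual CPM (SD, n = 3), and 458 without library C. Of all counts, library A gave the set 0.0160%, with an exact 95% binomial interval from 0.0158 to 0.0163. Library B gave it 0.0125% (0.0123 to 0.0128) and C 0.0366% (0.0361 to 0.0371). These intervals cover counting error alone and not the spread between blocks.

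The roles differed in level and in how far the libraries stood apart. In the order A, B, C, beta-glucosidases summed to 397, 339 and 729 residual CPM. Cellobiohydrolases summed to 89.3, 12.9 and 281 residual CPM, and endoglucanases to 49.7, 27.7 and 180.1. Library C was highest and library B lowest in each role. The highest library exceeded the lowest 2.15-fold for beta-glucosidases, 6.50-fold for endoglucanases and 21.8-fold for cellobiohydrolases. Under the other scalings of the libraries these folds were 2.01 to 2.08, 6.06 to 6.28 and 20.3 to 21.1. Most of each cellobiohydrolase sum was 1 transcript, TRINITY_DN23969_c0_g1_i1, at 68.0, 7.29 and 267 residual CPM. The order and fold of that role are therefore largely its own. Of the next in reads, TRINITY_DN24769_c0_g1_i1 had 10.7, 3.74 and 1.72 residual CPM, with library A highest. TRINITY_DN30066_c1_g1_i2 had 2.15, 0.178 and 5.92, with library C highest.

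**Figure D2:**
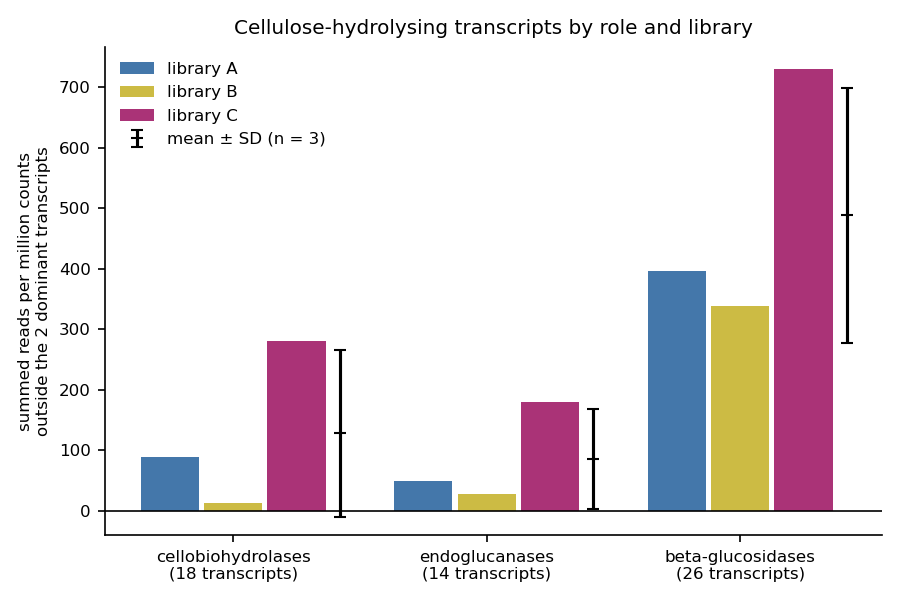
Summed reads of each role in residual CPM (linear axis), with a bar for each library and the mean ± SD of the 3 libraries beside it. Beta-glucosidases are the tallest group in every library, and library B has the lowest bar in each role, at 12.9 residual CPM for the cellobiohydrolases. Most of each cellobiohydrolase bar is the transcript TRINITY_DN23969_c0_g1_i1.

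The make-up of the set therefore shifted between libraries. In library A, beta-glucosidases took 74.1% of the reads of the set, with an exact 95% binomial interval from 73.4 to 74.7. They took 89.3% in B (88.6 to 89.9) and 61.3% in C (60.6 to 61.9). Cellobiohydrolases took 16.7% in A (16.1 to 17.2), 3.398% in B (3.02 to 3.805) and 23.6% in C (23.1 to 24.2). Per length, cellobiohydrolases stood at 0.427, 0.0799 and 0.607 of the beta-glucosidase sum in libraries A, B and C. They were below the beta-glucosidases in 3 of 3 libraries, where the exact two-sided sign-flip test gave p = 0.25, the smallest that 3 libraries allow (adjusted p = 0.375 over 3 pairs of roles). Endoglucanases stood at 0.177, 0.0872 and 0.299 of the beta-glucosidase sum, with the same p-values. This order depends on the product names, as an assembler gene described below shows.

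Among cellobiohydrolases, which work from the chain ends, 1 transcript held most of the reads. TRINITY_DN23969_c0_g1_i1, of 1558 bp and matched to cellobiohydrolase II of T. versicolor, had 2273, 164 and 5280 reads in libraries A, B and C. That is 13.1, 1.54 and 52.8 RPKM, a mean of 22.5 ± 26.9 (SD, n = 3), and 7.30 without library C. The SD exceeded the mean. Library C was 36.7-fold above library B (exact 95% counting interval 31.4 to 43.1), and library A lay between them.

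The other cellobiohydrolases were lower and did not all share that order. TRINITY_DN24769_c0_g1_i1, of 988 bp and matched to cellobiohydrolase I of T. versicolor, had 358, 84 and 34 reads, or 3.24, 1.25 and 0.536 RPKM. Its mean was 1.68 ± 1.40 RPKM (SD, n = 3), and 0.892 without library A. Here library A was highest and library C lowest, 6.22-fold apart (4.37 to 9.12), the reverse of the cellobiohydrolase II transcript for libraries A and C. The other isoforms of its assembler gene also had most reads in library A, with 69, 16 and 12 for TRINITY_DN24769_c0_g1_i3 and 44, 6 and 6 for TRINITY_DN24769_c0_g1_i2.

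Another cellobiohydrolase entry was matched by short fragments. The entry for the major cellobiohydrolase PUNSTDRAFT_135022 of P. strigosozonata was matched by 6 transcripts of 205 to 399 bp, which together had 171, 12 and 215 reads. The most read of them, TRINITY_DN30066_c1_g1_i2 of 254 bp, had 72, 4 and 117 reads, or 2.54, 0.231 and 7.17 RPKM. Its mean was 3.31 ± 3.53 RPKM (SD, n = 3), and 1.38 without library C, with library C 33.3-fold above library B (12.7 to 124). It repeated the order of the cellobiohydrolase II transcript, on few reads.

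That fragment belongs to an assembler gene, TRINITY_DN30066_c1_g1, whose other isoforms mostly carry no enzyme name. Of its 9 isoforms, 2 are in the set and hold 228 of the 13880 reads of the gene. The remaining 7 matched hypothetical proteins of P. strigosozonata. TRINITY_DN30066_c1_g1_i6, of 1474 bp and matched to PUNSTDRAFT_55356, had 1647, 144 and 2344 reads, or 9.998, 1.43 and 24.8 RPKM. TRINITY_DN30066_c1_g1_i3 had 1258, 119 and 2051 reads and TRINITY_DN30066_c1_g1_i1 had 1144, 66 and 2046. After depth scaling, the order of libraries was C, A, B in each of the 7.

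Counting these isoforms changed the balance of the roles. When all isoforms of the assembler genes in the set were included, 70 transcripts in all, the RPKM sums of the cellobiohydrolase genes were 67.0, 10.8 and 175.9 in the order A, B, C. The beta-glucosidase genes summed to 63.3, 54.1 and 117.9 RPKM. Cellobiohydrolase genes were then above beta-glucosidase genes per length in libraries A and C, and below them in library B. In residual CPM they stayed below in all 3 libraries, at 243, 33.5 and 688 against 426, 352 and 777. Whether the unnamed isoforms encode cellobiohydrolases was not tested, and this count was chosen after the values were seen.

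Endoglucanases, which cut within the chain, summed to 10.4, 4.51 and 33.0 RPKM in the order A, B, C. TRINITY_DN23921_c0_g1_i1, matched to endoglucanase PUNSTDRAFT_78795 of P. strigosozonata, had 570, 58 and 1005 reads in libraries A, B and C. That is 3.92, 0.655 and 12.03 RPKM, a mean of 5.54 ± 5.86 (SD, n = 3), and 2.29 without library C. Library C was 19.7-fold above library B (15.1 to 26.2). Its order of libraries was that of the cellobiohydrolase II transcript.

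Assembler gene TRINITY_DN23618_c0_g1 had 5 isoforms of 2240 to 2462 bp, all matched to endoglucanase 1 of S. hirsutum. Together they had 933, 557 and 2322 reads, or 27.9, 24.8 and 117.6 residual CPM. Libraries A and B were close and library C stood apart, 4.75-fold above library B. The isoforms TRINITY_DN23618_c0_g1_i2, TRINITY_DN23618_c0_g1_i5 and TRINITY_DN23618_c0_g1_i3 averaged 1.74, 1.70 and 1.69 RPKM. TRINITY_DN23618_c0_g1_i4 and TRINITY_DN23618_c0_g1_i1 averaged 1.17 and 1.12 RPKM. All 5 means leaned on library C, where the levels were 2.16 to 3.68 RPKM, and were 0.594 to 0.798 RPKM without it. Isoforms share sequence and no source used here says how common reads were split, so these 5 are not independent.

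The endoglucanase V-like transcripts were close to the floor in library B. TRINITY_DN23769_c0_g1_i2, of 804 bp and matched to PUNSTDRAFT_120039, had 58, 0 and 96 reads, and 0.646, 0 and 1.86 RPKM. Against a floor of 3 counts in library B, library C was at least 36.4-fold higher. TRINITY_DN22322_c0_g1_i3, of 653 bp and matched to T. versicolor, had 32, 2 and 84 reads, or 0.439, 0.0449 and 2.00 RPKM. Library C was 47.8-fold above library B, with a counting interval of 12.8 to 401, since the 2 reads in B lie under the floor. These folds are thus not ranked against each other. Both had the order C, A, B.

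Beta-glucosidases, which complete the release of glucose, held the largest sums and fell into steadier and less steady transcripts. The highest mean level was that of TRINITY_DN29643_c0_g1_i2, of 2048 bp and matched to beta-glucosidase STEHIDRAFT_94862 of S. hirsutum. It had 2219, 2324 and 4497 reads, or 9.70, 16.7 and 34.2 RPKM, a mean of 20.2 ± 12.6 (SD, n = 3), and 13.2 without library C. In library A both transcripts of the next gene were above it. Library A was lowest here and library C 3.43-fold above it (3.26 to 3.61). Its isoform TRINITY_DN29643_c0_g1_i1 had the same order, with 1.86, 2.52 and 4.91 RPKM.

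Assembler gene TRINITY_DN30308_c1_g3 held 2 transcripts with different matches. TRINITY_DN30308_c1_g3_i2, of 2951 bp and matched to beta-glucosidase PUNSTDRAFT_136224, had 3983, 2004 and 4601 reads, the most reads in the set. Its levels were 12.1, 9.96 and 24.3 RPKM, a mean of 15.4 ± 7.72 (SD, n = 3). TRINITY_DN30308_c1_g3_i1, of 1464 bp and matched to T. versicolor, had 2066, 712 and 1550 reads, or 12.6, 7.14 and 16.5 RPKM. Both were highest in library C and lowest in library B, 2.61-fold and 2.48-fold apart.

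The steadiest named beta-glucosidase differed little between blocks. TRINITY_DN29217_c1_g2_i1, of 2881 bp and matched to T. versicolor, had 1971, 1196 and 1062 reads, or 6.12, 6.09 and 5.74 RPKM. Its mean was 5.98 ± 0.213 RPKM (SD, n = 3), with the libraries within 1.11-fold of each other after depth scaling. TRINITY_DN29217_c1_g3_i1, matched to the same entry, had 2.85, 3.82 and 4.57 RPKM. The 3 isoforms of TRINITY_DN30308_c1_g2 matched to beta-glucosidase PUNSTDRAFT_74177, which are named here after their values were seen, together had 14.5, 16.0 and 13.6 residual CPM.

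Other beta-glucosidases had the library order of the chain-cutting enzymes. TRINITY_DN26987_c0_g1_i1 and TRINITY_DN26987_c0_g1_i3, both matched to beta-glucosidase 1B of T. versicolor, had 535, 66 and 552 reads and 456, 63 and 432 reads. In RPKM the first had 3.88, 0.785 and 6.97 and the second 3.48, 0.789 and 5.74. The remaining isoform of this gene, TRINITY_DN26987_c0_g1_i2, is not in the set, since its match is named glycoside hydrolase family 1 protein. It had 723, 98 and 813 reads, in the same order.

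The gene pair TRINITY_DN25308 also had library B lowest. TRINITY_DN25308_c0_g2_i1, of 2221 bp, had 661, 231 and 453 reads, or 2.66, 1.53 and 3.18 RPKM. TRINITY_DN25308_c0_g1_i1, of 1376 bp and matched to the same T. versicolor entry, had 65, 12 and 108 reads, or 0.423, 0.128 and 1.22 RPKM. The libraries stood 2.23-fold apart for the first and 10.2-fold apart for the second, although both matched 1 entry.

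**Figure D3:**
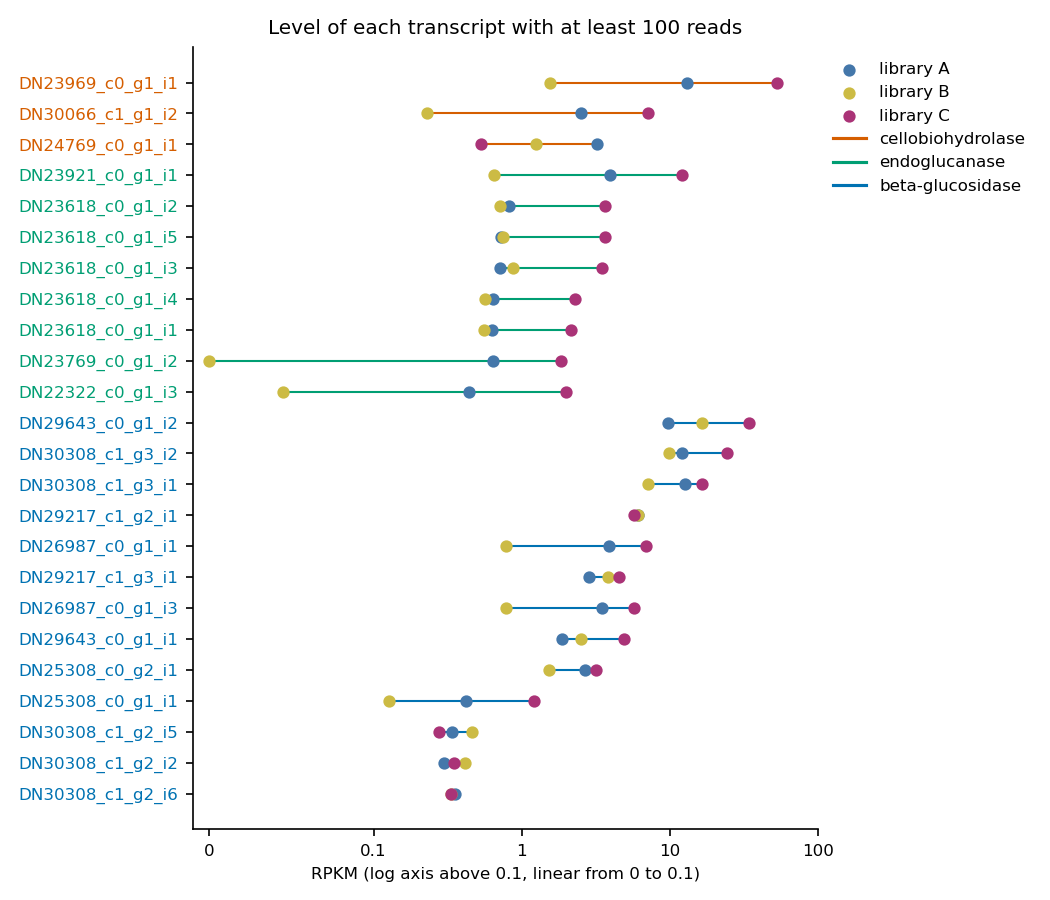
RPKM in each library for the 24 transcripts with at least 100 reads, grouped by role, on an axis that is linear from 0 to 0.1 and logarithmic above. A line joins the lowest and highest library. Library C lies rightmost in 19 of the 24, and the cellobiohydrolase TRINITY_DN24769_c0_g1_i1 has library A rightmost.

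The spread between replicate blocks was then set against that of all transcripts. Of the 24 transcripts with at least 100 reads, 14 had a highest library at least 4-fold above the lowest, or 58.3%, against 3.98% of the 24194 transcripts of the assembly with that many reads. At least 10-fold apart were 6 of the 24, or 25.0%, against 1.29%. With a minimum of 10 reads, the 4-fold count was 28 of 42 against 20.8% of all transcripts. Among P. strigosozonata matches with at least 100 reads it was 3 of 7 against 1.92%. With at least 100 reads, the median fold was 4.54 in the set and 1.51 over all transcripts. Each library is 1 sample, so this is a description with no test.

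Isoforms of 1 gene are counted separately there, so the reads were also summed by assembler gene, over the isoforms in the set. The share of all assembler genes beside it takes every isoform of a gene. At least 4-fold apart were 9 of 15 genes with at least 100 reads, against 5.14% of all assembler genes. These were all 7 of the cellobiohydrolase and endoglucanase genes and 2 of 8 beta-glucosidase genes. The cellobiohydrolase genes ranged from 5.35-fold to 41.0-fold, the endoglucanase genes from 4.75-fold upwards and the beta-glucosidase genes from 1.11-fold to 10.2-fold. The 41.0-fold belongs to TRINITY_DN30066_c1_g1, counted on 228 of its 13880 reads, and is not a fold of the whole gene. Next among the cellobiohydrolase genes was TRINITY_DN23969_c0_g1, with 1 isoform, at 36.7-fold. The upper end for endoglucanase genes is not given as a number, since both V-like genes had fewer than 3 reads in library B. The difference between the roles was not tested.

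The count rested mainly on libraries B and C. Without library B, 5 of 24 transcripts were at least 4-fold apart, without library C 7, and without library A 13. Library C was at least 4-fold above library B in 13 of 24, against 1.52% of all transcripts. Library A was that far above library B in 7 of 24, against 2.1%, and library C above library A in 4 of 24, against 0.265%. Library A was that far above library C in 1 of 24, against 1.6%. Library B was that far above library A in 0 of 24, against 0.0827%, and above library C in 0 of 24, against 0.632%.

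**Figure D4:**
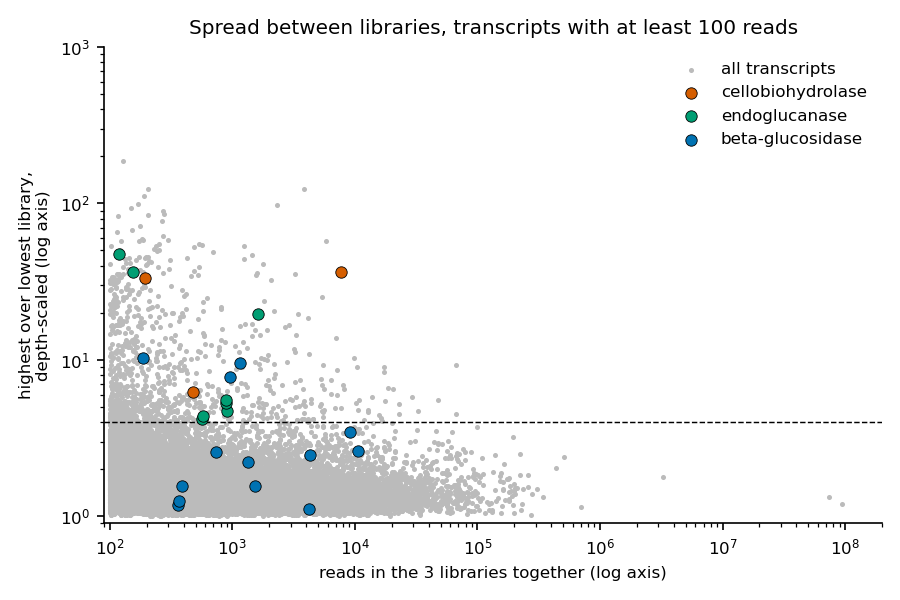
Highest over lowest library after depth scaling against total reads, both on log axes, for the 24194 transcripts with at least 100 reads. Grey points are all transcripts, coloured points the 24 of the set by role, and the dashed line stands at 4-fold. All cellobiohydrolase and endoglucanase points and 3 of 13 beta-glucosidase points lie above the line.

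The libraries also tended to fall in the same order, C, A, B. That is the order of the summed reads of the set itself, so the shares below describe it and do not test it. Library C was highest in 19 of the 24 transcripts, against 31.4% of all, and library B lowest in 17, against 38.9%. The full order C, A, B held in 15, or 62.5%, against 19.1%. With at least 4-fold between highest and lowest as well, it held in 12, against 0.988%. The order was C, A, B in 7 of 8 endoglucanase, 2 of 3 cellobiohydrolase and 6 of 13 beta-glucosidase transcripts. Of these 8 endoglucanases, 5 are isoforms of TRINITY_DN23618_c0_g1, and the order was not counted by assembler gene. All these orders are in residual CPM and can change in RPKM where libraries are close. TRINITY_DN23618_c0_g1_i5 had 0.725, 0.743 and 3.65 RPKM, with library A lowest. TRINITY_DN29217_c1_g2_i1 had 6.12, 6.09 and 5.74 RPKM, with library C lowest.

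A biological coefficient of variation per transcript was also estimated. It could be estimated for 22 transcripts, those with 10 or more reads in each library, which leaves out those near 0 in library B. Its median was 0.682 in the set and 0.191 over 31168 transcripts. The cellobiohydrolase II transcript TRINITY_DN23969_c0_g1_i1 had 1.33 and lay at percentile 99.95, and the endoglucanase TRINITY_DN23921_c0_g1_i1 had 1.16. The beta-glucosidase TRINITY_DN29217_c1_g2_i1 had 0.0200 and lay at percentile 16.3.

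Short fragments and longer transcripts had the same order of summed levels. In the order A, B, C, fragments under 500 bp summed to 11.1, 2.00 and 15.4 residual CPM and longer transcripts to 525, 377 and 1175. Taken singly, of the 33 transcripts under 500 bp, 20 were highest in library A after depth scaling and 10 in library C. Of the 25 longer ones, 5 were highest in library A and 18 in library C. Reads were absent for 17 fragments in library B, for 16 in C and for only 3 in A, the library with most counts. Neither these numbers nor the highest libraries were set against all transcripts of like length or depth. Whether they are particular to the set was therefore not tested. With a median of 10 reads per fragment, the order within a single fragment rests on few reads.

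Transcripts whose profile over the 3 libraries was most like that of the cellobiohydrolase II transcript were looked for among 7973 others with at least 1000 reads. Likeness was the summed squared difference of log2 CPM, centred for each transcript. Nearest was TRINITY_DN23553_c0_g1_i1, with no database match and 498, 34 and 1069 reads. Then came TRINITY_DN30066_c1_g1_i1, the isoform beside the major cellobiohydrolase fragment, and TRINITY_DN25649_c0_g1_i1, matched to hypothetical protein PUNSTDRAFT_154759, with 625, 31 and 1115 reads. TRINITY_DN23553_c0_g1_i2, also unmatched, and the endoglucanase TRINITY_DN23921_c0_g1_i1 were the next. Over 3 libraries such likeness describes a pattern only.

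Related steps of wood sugar release were read from 6 word lists without the 58 transcripts. The list for oxidative cellulose attack, with family 61 proteins and cellobiose dehydrogenase, had 18 transcripts. In the order A, B, C it summed to 242, 71.3 and 446 residual CPM, with the same order of libraries and a 6.26-fold range. At least 4-fold apart were 5 of its 9 transcripts with at least 100 reads, against 3.98% of all transcripts with that many reads. The family 61 transcript TRINITY_DN22113_c0_g1_i1 had 18.0, 5.31 and 45.5 RPKM and TRINITY_DN13024_c0_g2_i1 had 12.5, 1.80 and 18.8 RPKM.

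Per length the oxidative list stood at 0.583, 0.246 and 0.480 of the set in libraries A, B and C. It was lower in 3 of 3 libraries, by a geometric mean ratio of 0.410 (exact two-sided sign-flip p = 0.25, adjusted p = 0.5 over 6 lists). The smallest p that 3 libraries allow is 0.25, so no such difference could pass a threshold of 0.05.

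The other lists moved less between libraries. Hemicellulose enzymes (46 transcripts) had 472, 350 and 530.5 residual CPM. Of 20 with at least 100 reads, 1 was at least 4-fold apart, against 3.98% of all transcripts. That was the acetylxylan esterase TRINITY_DN25086_c1_g1_i2, with 13.4, 3.35 and 42.8 RPKM. The family 51 transcript TRINITY_DN26541_c0_g1_i1 had 18.9, 15.7 and 14.6 RPKM.

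Glycoside hydrolases named only by families 1, 3 or 5, which include beta-glucosidases and endoglucanases in other fungi, had 22 transcripts. They summed to 1912, 1507 and 1609 residual CPM, above the set in 3 of 3 libraries in reads and in 2 of 3 per length. At least 4-fold apart was 1 of 18 with at least 100 reads, against 3.98% of all transcripts. The highest were the family 5 transcripts TRINITY_DN28491_c0_g1_i1, with 27.7, 28.4 and 24.4 RPKM, and TRINITY_DN26629_c0_g1_i1, with 21.8, 33.9 and 21.3 RPKM.

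The word list for cellulose binding and loosening (11 transcripts) took carbohydrate-binding modules of any family, and binding to cellulose was not tested. It had 869, 547 and 494 residual CPM, with library A highest. Both of its leading transcripts, TRINITY_DN27688_c0_g2_i1 at 119, 83.8 and 70.5 RPKM and TRINITY_DN27688_c0_g2_i2 at 38.2, 26.8 and 20.8 RPKM, matched a carbohydrate-binding module family 13 protein. At least 4-fold apart was 1 of its 7 transcripts with at least 100 reads, against 3.98% of all transcripts.

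Summed levels for the steps after hydrolysis lay within 1.29-fold for sugar uptake and 1.07-fold for glucose entry. Sugar transporters (17 transcripts) had 43.3, 33.7 and 34.2 residual CPM, led by TRINITY_DN17550_c0_g1_i1 at 5.82, 4.60 and 5.94 RPKM and TRINITY_DN28209_c1_g2_i1 at 1.55, 1.74 and 1.70 RPKM. Glucose entry enzymes (19 transcripts) had 449, 452 and 423 residual CPM. In that list the phosphoglucomutase TRINITY_DN28138_c1_g1_i1 had 57.0, 66.1 and 51.4 RPKM and the hexokinase TRINITY_DN28916_c0_g1_i1, which phosphorylates glucose, 11.1, 10.8 and 15.0 RPKM. At least 4-fold apart were 0 of 8 sugar transporter and 1 of 4 glucose entry transcripts with at least 100 reads, against 3.98% of all transcripts.

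**Figure D5:**
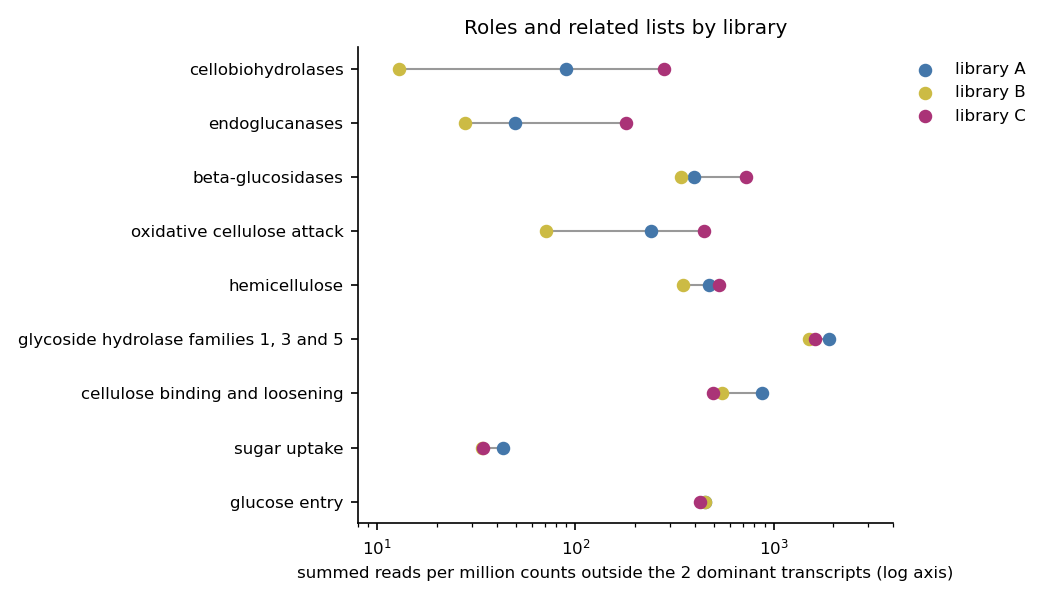
Summed residual CPM on a log axis for the 3 roles and 6 related lists, with a point for each library and a line from the lowest to the highest. The points spread 21.8-fold for cellobiohydrolases and 6.26-fold for oxidative cellulose attack, and 1.07-fold for glucose entry. Most of each cellobiohydrolase sum is the transcript TRINITY_DN23969_c0_g1_i1.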

How the data were processed

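Per the labels' protocols, poly(A) RNA was isolated, stranded libraries were made and paired reads of 125 bp were sequenced. The authors deposited whole-number read counts per assembled transcript, with its length, not normalised. The submitters' processing notes name cutadapt (1.2.1), SAMtools (0.1.19) and Bowtie2 (2.2.6) without roles. No source used here names the assembler, counting rule or use of strand. Per the file headers, matches came from a database made by the authors. Of its 29875 lines, repeats were removed.

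The unnamed count columns could be tied to the group but not to single replicates. The replicate numbers in the name of the deposited counts differ from those in the sample titles. That the counts belong to the titled samples is therefore assumed. The labels call the blocks independent biological replicates. CPM, RPKM and folds were computed with Python 3.11.15 and pandas 2.3.3; a count of 0 was set to 3 for folds over all transcripts. Exact binomial intervals and floors cover counting error only, with each read taken as independent. Of the non-zero counts, 58.3% were even in library A, 59.2% in B and 64.2% in C. If both mates of a pair were counted, which was not tested, the intervals are too narrow. EdgeR 4.0.16 estimated the coefficient of variation with an intercept alone and no shrinkage, and was tested on simulated data. For widely spread transcripts that check would also have passed with estimates well below the true value. The size of large coefficients was therefore not closely checked. TMM and DESeq2 1.42.0 size factors were alternatives.

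Named are transcripts of the set with at least 100 reads and either a mean of 1 RPKM or a 10-fold range, and the 2 highest of each list. Members and lists were chosen with earlier results of these data known.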

Additional observations from a re-analysis of the deposited data

How the results depend on the processing

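The summed level of the set depended on its unit and on which matches counted. The mean of 702 residual CPM was 217 when scaled to all counts and 194 for P. strigosozonata matches alone. The summed 122 RPKM became 235 as TPM, 30.4 for P. strigosozonata matches and 77.3 without library C. These changes follow from the denominators, transcripts or libraries that the alternatives use. The count of 14 transcripts at least 4-fold apart became 28 of 42 with a minimum of 10 reads, where 20.8% of all transcripts passed, 3 of 7 for P. strigosozonata matches and 9 of 15 by assembler gene, with or without the isoforms outside the set. With 1 library left out it ran from 5 to 13. It was 13 or 14 under the other scalings. The beta-glucosidase share, as a mean over libraries, lay between 63.9% and 86.7% in the alternatives for which that mean was taken. With the isoforms outside the set, the share in library C alone was 47.2% of reads. Per length with those isoforms, it was lower, at 44.9%, 77.9% and 36.0% in libraries A, B and C. The ratio of the oxidative list stayed below 1. Mean RPKM changed by over 1.5 times in 14 of the 21 named transcripts without library C, in 1 without library A and in 0 without library B. No paired analysis was possible because the libraries form 1 group. Depth limited the 34 transcripts under 100 reads.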
